A study of Mus musculus with 127 samples.

Results

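The 7 genes described here are Prdx1, Prdx2, Prdx3, Prdx4, Prdx5 and Prdx6, which encode the peroxiredoxins, and Txn1, which encodes cytosolic thioredoxin. They were taken by symbol from a deposited table of 23946 genes of single cells, and all 7 were present. The cells came from bone marrow of wild-type C57BL/6 mice, from a population that the labels call GMP-P, in a series on cell states of granulocyte specification and commitment. Sorting gave 3 gates. The CD11b+ gate held 40 cells, the Ly6g high gate 46 cells and the Ly6g low gate 41 cells, and the labels describe both Ly6g gates as CD11b+ too. Crushed hindlimb bones gave the marrow, CD117 (Kit) beads enriched it, and sorted cells went into Fluidigm C1 capture chips. No genotype other than wild type, no treatment and no age stood in the labels used here. A second file gave each cell 1 of 11 class names. No animal was named, so each gate counts as 1 sample. All differences below therefore lack a replicate check and carry no test, and spreads are those over cells.

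Peroxiredoxins are thiol enzymes that reduce hydrogen peroxide and organic peroxides. Prdx1 and Prdx2 are cytosolic, Prdx3 works in the mitochondrial matrix and Prdx4 in the endoplasmic reticulum, and these are typical 2-Cys enzymes that form disulfides. Prdx5 is an atypical 2-Cys enzyme found in mitochondria, peroxisomes and cytosol. Prdx6 uses a single catalytic cysteine, is recycled with glutathione and also has phospholipase activity. Thioredoxin, kept reduced by thioredoxin reductase with NADPH, returns the 2-Cys peroxiredoxins to their active form. In neutrophils and their precursors the phagocyte NADPH oxidase makes superoxide, from which hydrogen peroxide forms, so the supply of peroxide-reducing enzymes was read here beside the oxidase genes Cybb, Cyba, Ncf1, Ncf4 and Rac2.

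Values are TPM, a share of transcripts that is corrected for length, with a common total for all cells, so a gene at 1000 TPM makes up 0.1% of a cell's estimated transcripts. Levels of different genes can therefore be set side by side on this scale. A gene was called detected in a cell at 1 TPM or more. Depth in reads is unknown, and the number of genes detected stands in for it. In CD11b+ the median cell had 2464.5 such genes, in Ly6g high 1695 and in Ly6g low 2521. By class it was 2728 in HSCP-2, 4679 in Mono, 3678 in Gran-1, 4315.5 in Gran-2, 1409 in Myelo-4, 1282 in Myelo-3, 2239.5 in Myelo-2 and 3514 in Myelo-1 cells. The cell names state no plate or run. Their position codes recur between gates, and the names of CD11b+ cells begin with another kind of prefix, so gate and any plate or run cannot be told apart.

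The gate genes were read first. Ly6g, the granulocyte surface protein, averaged 171 TPM in the CD11b+ gate, 936 TPM in Ly6g high, with 353 TPM in Ly6g low. It was detected in 8, 36 and 28 cells of those gates. At 5 TPM or more the counts were 7, 28 and 14. The Ly6g low median was 1.96 TPM, so its count at 1 TPM leaned on values near that limit. Itgam, which encodes CD11b, was detected in 27 cells of CD11b+, 41 of Ly6g high and 37 of Ly6g low. Kit was detected in 19, 6 and 9 cells of the same gates. The gates differed in class make-up. The classes Myelo-1 to Myelo-4 held 22 of the CD11b+ cells, 43 cells of Ly6g high and 37 of Ly6g low. The other 25 cells were 7 HSCP-2, 5 Mono, 4 Gran-1 and 6 Gran-2 cells and 1 cell each of Eryth, Multi-Lin and MDP.

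A few cells were read singly beside their labels, and the MDP cell and CD11b+ cell 46 stood apart from theirs. The only MDP cell had a summed level of 222780 TPM over 6 basophil and mast cell markers, led by the basophil protease gene Prss34, and 25.9 TPM over 8 monocyte markers. The only Eryth cell had 15542.6 TPM over 11 erythroid markers, 6 of them detected and led by Car1, which goes with its label. Alas2 and the globin genes Hba-a1, Hba-a2, Hbb-b1 and Hbb-b2 were not detected in it. CD11b+ cell 46, labelled Myelo-4, had the lowest neutrophil marker sum of the 16 Myelo-4 cells, 2463.03 TPM where the median was 544178 TPM. It also had their highest monocyte marker sum, 3005.92 TPM. Ratios of Prdx1 and Prdx3 that turn on it are also given without it. Prdx6b, a close copy of Prdx6, never passed 0.14 TPM in any cell, and how far reads of other processed copies were shared among the peroxiredoxin genes is not known from a table of estimated abundances.

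The 7 genes together took a similar part of the transcripts in each gate, 0.236% in CD11b+, 0.252% in Ly6g high and 0.273% in Ly6g low. Their summed level averaged 2363 ± 1033 TPM in CD11b+ (SD over 40 cells), 2523 ± 1163 TPM in Ly6g high (46 cells) and 2731 ± 890 TPM in Ly6g low (41 cells). The make-up of that sum differed by class. In the 102 Myelo-1 to Myelo-4 cells Prdx1, Prdx2, Prdx3 and Prdx4 together averaged 121 TPM, against 1315 TPM in the 25 cells of the other classes. Prdx5, Prdx6 and Txn1 together averaged 2442 TPM in the Myelo cells, against 1129 TPM in the others. The median of the 7-gene sum was 2461.7 TPM in Myelo cells and 2472.44 TPM in the other classes, so the totals were alike while the genes behind them were not. None of Prdx1 to Prdx4 was detected in 55 of 102 Myelo cells, against 1 of 25 cells of the other classes. All 7 genes were detected in only 4 cells, which were 3 Mono cells and the Eryth cell.

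The equal totals belong to the TPM scale. Transcripts of 20 granule genes took a median of 52.8% of all TPM in Myelo cells and 5.99% in the other classes, which leaves less of the scale for every other gene. When TPM was rescaled without those genes, the median 7-gene sum was 5246 TPM in Myelo cells, against 2717 TPM in the others. On that scale Prdx5, Prdx6 and Txn1 together averaged 5238 and 1244 TPM in Myelo cells and in the others, and Prdx1 to Prdx4 together 218 and 1382 TPM. The opposite directions of the 2 sums were thus the same on both scales, but not those of every gene in them. Prdx5 averaged 1715 TPM in Myelo cells and 424 TPM in the others before rescaling, and Txn1 413 and 340 TPM. Prdx6 was lower in Myelo cells before rescaling, at 314 and 365 TPM, and higher after it, at 657 and 389 TPM. Whether the cells of a class also differ in total RNA was not measured.

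**Figure D1:**
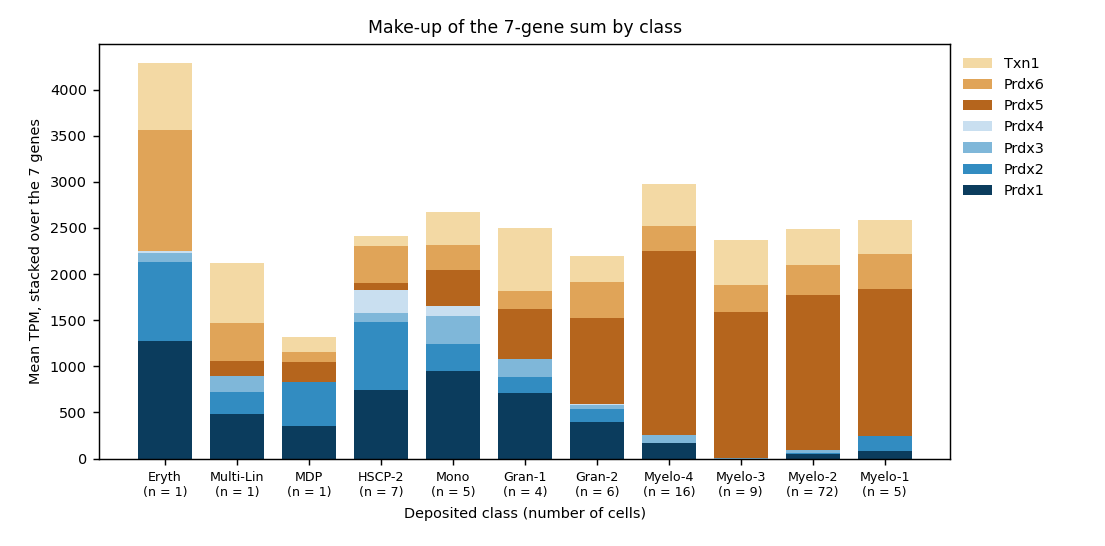
Mean TPM of each of the 7 genes, stacked, in the cells of each deposited class, with the number of cells under each bar. Prdx1 to Prdx4 (blue) fill most of the HSCP-2 and Mono bars and little of the Myelo bars, where Prdx5 (dark brown) averages 1577 to 1990 TPM.

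Prdx1, the most widely expressed cytosolic 2-Cys peroxiredoxin, was the first or second of the 7 genes by mean level in HSCP-2, Mono, Gran-1 and Gran-2 cells. In the 5 Mono cells Prdx1 stood at 837, 664 and 621 TPM in CD11b+, 1201 TPM in Ly6g high, with 1425 TPM in Ly6g low. The 4 Gran-1 cells, all CD11b+, had 432, 543, 818 and 1039 TPM of Prdx1. In the 6 Gran-2 cells it ranged from 136 to 639 TPM with a median of 399 TPM, so Mono and Gran-2 cells touched only at their edges. In the 7 HSCP-2 cells the level of Prdx1 ranged from 0 to 1664 TPM with a median of 675 TPM, and 6 cells had it. The Myelo classes were mostly without it. Prdx1 was detected in 2 of 16 Myelo-4 cells, 4 of 9 Myelo-3 cells (none over 3.74 TPM), 22 of 72 Myelo-2 cells and 4 of 5 Myelo-1 cells. The Myelo-2 level ranged from 0 to 636 TPM with a median of 0 TPM, and 30.6% of the cells had it (exact 95% interval 20.2 to 42.5%). The Myelo-4 mean of 164 TPM was 58.7 TPM without cell 46, which had 1745 TPM, the highest Prdx1 level of any cell.

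Prdx2, the cytosolic 2-Cys enzyme best known from red blood cells, followed Prdx1 with fewer positive cells. In the 5 Mono cells it stood at 363, 35 and 32.6 TPM in CD11b+, 448 TPM in Ly6g high, with 565 TPM in Ly6g low. In the 7 HSCP-2 cells Prdx2 ranged from 0 to 1982 TPM with a median of 747 TPM and a mean of 739 TPM, the same mean as Prdx1 there. Beside this, the erythroid marker sum had a median of 356 TPM in HSCP-2 cells, led by Car2 with Klf1 and Alas2 at 0, and of 0 TPM in Myelo-2 cells. Only 3 of its 11 markers were detected in any HSCP-2 cell. It did not stand out there, where the median sum was 315 TPM for basophil and mast cell markers and 774 TPM for progenitor markers. The part of these sums in the Prdx2 level was not tested. Of the Gran-1 cells 2 had 97.6 and 588 TPM of Prdx2 and the others had none. In Gran-2 cells it ranged from 0 to 385 TPM with a median of 150 TPM. Myelo-1 was the Myelo class with the most Prdx2, at 137 TPM in its CD11b+ cell and 422, 64.9, 205 and 0 TPM in its Ly6g low cells. Prdx2 was detected in 8 of 72 Myelo-2 cells and 1 of 16 Myelo-4 cells, and in 0 of 9 Myelo-3 cells, a count that allows a share of up to 33.3%.

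Among the 7 genes Prdx1 and Prdx2 were the most alike across cells. Over all cells their log2(TPM + 1) values had a Pearson r of 0.54, and 27 of the 34 cells with Prdx2 also had Prdx1. Both also followed the number of genes detected, with r of 0.60 each over all cells, so the points also share the number of genes found in each library, whose part was not tested. Within the 72 Myelo-2 cells r between Prdx1 and Prdx2 was -0.15, and r between Prdx1 and genes detected was 0.04. Among cells with 1500 to 3000 genes detected, where depth is closer, 5 HSCP-2 cells had a median of 65.2 TPM of Prdx1 and 765 TPM of Prdx2, against medians of 0 TPM for both in 61 Myelo-2 cells. No Mono or Gran-2 cell and 1 Gran-1 cell fell in that range, so the classes with more genes could not be compared at matched depth.

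The promoter sequences of this pair are shown with those of Prdx3 and Prdx5, since Prdx1 and Prdx2 were high in the same classes and Prdx5 in others. They are the 250 bases before the annotated start from RefSeq (build GRCm38.p6, another build than the mm9 named in the submitters' processing notes), written in the direction of the gene. Entries were matched by symbol for 6 of the 7 genes, all but Prdx6. The 6 windows had 55.6 to 69.2% G and C and 9 to 23 CpG pairs, where all 32851 promoters of the table had medians of 52.4% and 6. Capitals mark matches to TGACNNNGC, the letters of the antioxidant response element bound by NRF2, or to TTGCNNAA, letters of C/EBP sites, each searched on both strands. Prdx1 (chr4:116685349-116685598, plus strand) held the first on its reverse strand, 133 to 125 bases before the start. Prdx3 (chr19:60874539-60874788, minus strand) held the second, 101 to 94 bases before its start. Prdx2 (chr8:84969372-84969621, plus strand), Prdx5 (chr19:6910107-6910356, minus strand), Prdx4 and Txn1 held neither. Of all promoters of this length 10.16% held TGACNNNGC and 9.564% held TTGCNNAA, so 1 match to each among 6 windows is a description only.
Prdx1: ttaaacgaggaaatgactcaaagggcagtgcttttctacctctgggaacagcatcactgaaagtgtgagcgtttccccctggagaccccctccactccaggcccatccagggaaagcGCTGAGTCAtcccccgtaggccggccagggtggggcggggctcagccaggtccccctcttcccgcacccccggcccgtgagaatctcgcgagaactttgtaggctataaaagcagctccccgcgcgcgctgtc
Prdx2: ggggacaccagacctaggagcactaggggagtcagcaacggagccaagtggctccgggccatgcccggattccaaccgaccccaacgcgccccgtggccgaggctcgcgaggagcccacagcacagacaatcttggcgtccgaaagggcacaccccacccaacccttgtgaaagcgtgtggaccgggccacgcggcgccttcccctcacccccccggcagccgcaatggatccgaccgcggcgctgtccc
Prdx3: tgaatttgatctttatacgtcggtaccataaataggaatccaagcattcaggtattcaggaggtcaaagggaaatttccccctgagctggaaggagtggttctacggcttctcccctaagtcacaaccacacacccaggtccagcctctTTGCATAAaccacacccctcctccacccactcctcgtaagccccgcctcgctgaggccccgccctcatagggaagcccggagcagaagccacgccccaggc
Prdx5: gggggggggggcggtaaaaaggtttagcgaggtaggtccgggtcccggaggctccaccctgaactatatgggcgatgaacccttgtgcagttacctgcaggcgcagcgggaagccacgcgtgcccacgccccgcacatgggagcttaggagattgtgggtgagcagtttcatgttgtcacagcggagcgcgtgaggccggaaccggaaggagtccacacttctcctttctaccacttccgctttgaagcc

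Prdx3, the peroxiredoxin of the mitochondrial matrix, was present in all 5 Mono cells, at 263, 856 and 121 TPM in CD11b+, 29.7 TPM in Ly6g high, with 289 TPM in Ly6g low. It was found in 5 of 6 Gran-2 cells, up to 135 TPM, in 1 of 4 Gran-1 cells, at 797 TPM, and in 3 of 7 HSCP-2 cells. Myelo-1 cells had none over 0.71 TPM. In Myelo-2 cells Prdx3 was detected in 13 of 72 cells, and 1 cell with 1255 TPM gave 53.2% of the class sum. In Myelo-4 cells cell 46, with 1289 TPM, gave 90.9% of the sum, and the mean was 88.6 TPM with it and 8.56 TPM without it. In the Mono class too, 1 cell gave 54.96% of the Prdx3 sum, so single cells weighed on the Prdx3 mean in each of these classes.

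Prdx4, the secretory-pathway peroxiredoxin, was the rarest of the 7. It was detected in 9 cells in all, and each of those 9 cells also had Prdx1 and Prdx2. They were 3 HSCP-2 cells with 262 TPM in CD11b+ and 327 and 1139 TPM in Ly6g high, 3 Mono cells with 368 TPM in CD11b+, 132 TPM in Ly6g high, with 4.79 TPM in Ly6g low, the Eryth cell with 15.8 TPM, Gran-2 cell 6 of Ly6g low with 61 TPM and Myelo-4 cell 46 with 98.1 TPM. None of the 72 Myelo-2 cells had it, which allows a share of up to 4.17%. Without cell 46, no cell of the 4 Myelo classes had Prdx4.

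Prdx5 ran the other way. This enzyme of mitochondria, peroxisomes and cytosol was detected in all but 2 cells and was the first of the 7 genes by mean level in all 4 Myelo classes and in Gran-2. It ranged from 121 to 3146 TPM in Myelo-2 cells, with a median of 1711 TPM, and was present in 72 of 72 cells. Myelo-4 cells had 237 to 6036 TPM with a median of 2226 TPM, Myelo-3 cells 0 to 5304 TPM with a median of 739 TPM, and Myelo-1 cells 1032 to 2582 TPM with a median of 1477 TPM. These 4 classes overlapped throughout. Gran-2 cells had 705 to 1129 TPM of Prdx5, Gran-1 cells 698, 784, 232 and 466 TPM, and Mono cells 160 to 759 TPM. In HSCP-2 cells Prdx5 ranged from 0 to 227 TPM with a median of 12.6 TPM, and all 7 lay below every Gran-2 and every Myelo-1 cell. The order of the class means was Myelo-4, Myelo-2, Myelo-1, Myelo-3, Gran-2, Gran-1, Mono and HSCP-2, in which the first 4 neighbours do not differ beyond their spread over cells. Prdx5 did not follow the number of genes detected, with r of -0.13 over all cells.

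Prdx6, the 1-Cys enzyme, had like means in most classes. They were 401 TPM in HSCP-2, 277 TPM in Mono, 193 TPM in Gran-1, 388 TPM in Gran-2, 272 TPM in Myelo-4, 294 TPM in Myelo-3, 321 TPM in Myelo-2 and 375 TPM in Myelo-1. The shares of cells differed more than the means. Prdx6 was detected in 69 of 72 Myelo-2 cells and in every Mono, Gran-1, Gran-2 and Myelo-1 cell, but in 9 of 16 Myelo-4, 5 of 9 Myelo-3 and 4 of 7 HSCP-2 cells. The median was 3.27 TPM in Myelo-4 cells and 292 TPM in Myelo-2 cells. Fewer genes were detected in Myelo-4 and Myelo-3 cells than in the other classes, and r of Prdx6 with genes detected was 0.42 over all cells. The part of depth in these shares was not tested.

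Txn1, the electron donor of the 2-Cys peroxiredoxins, was detected in all but 7 cells. Its means were 356 TPM in Mono, 681 TPM in Gran-1, 283 TPM in Gran-2, 453 TPM in Myelo-4, 493 TPM in Myelo-3, 397 TPM in Myelo-2 and 374 TPM in Myelo-1 cells, with ranges that overlapped. Myelo-2 cells ran from 0.46 to 1543 TPM with a median of 375 TPM. HSCP-2 was the class with the least Txn1, at 129, 1.78 and 643 TPM in 3 CD11b+ cells and 0 TPM in the other 2 CD11b+ cells and both Ly6g high cells. Prdx1 or Prdx2 was detected in 6 of these 7 cells, and Txn1 in 3 of those 6. Since read depth is unknown, 0 TPM means not detected, and whether the other cells lacked Txn1 transcript was not tested.

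**Figure D2:**
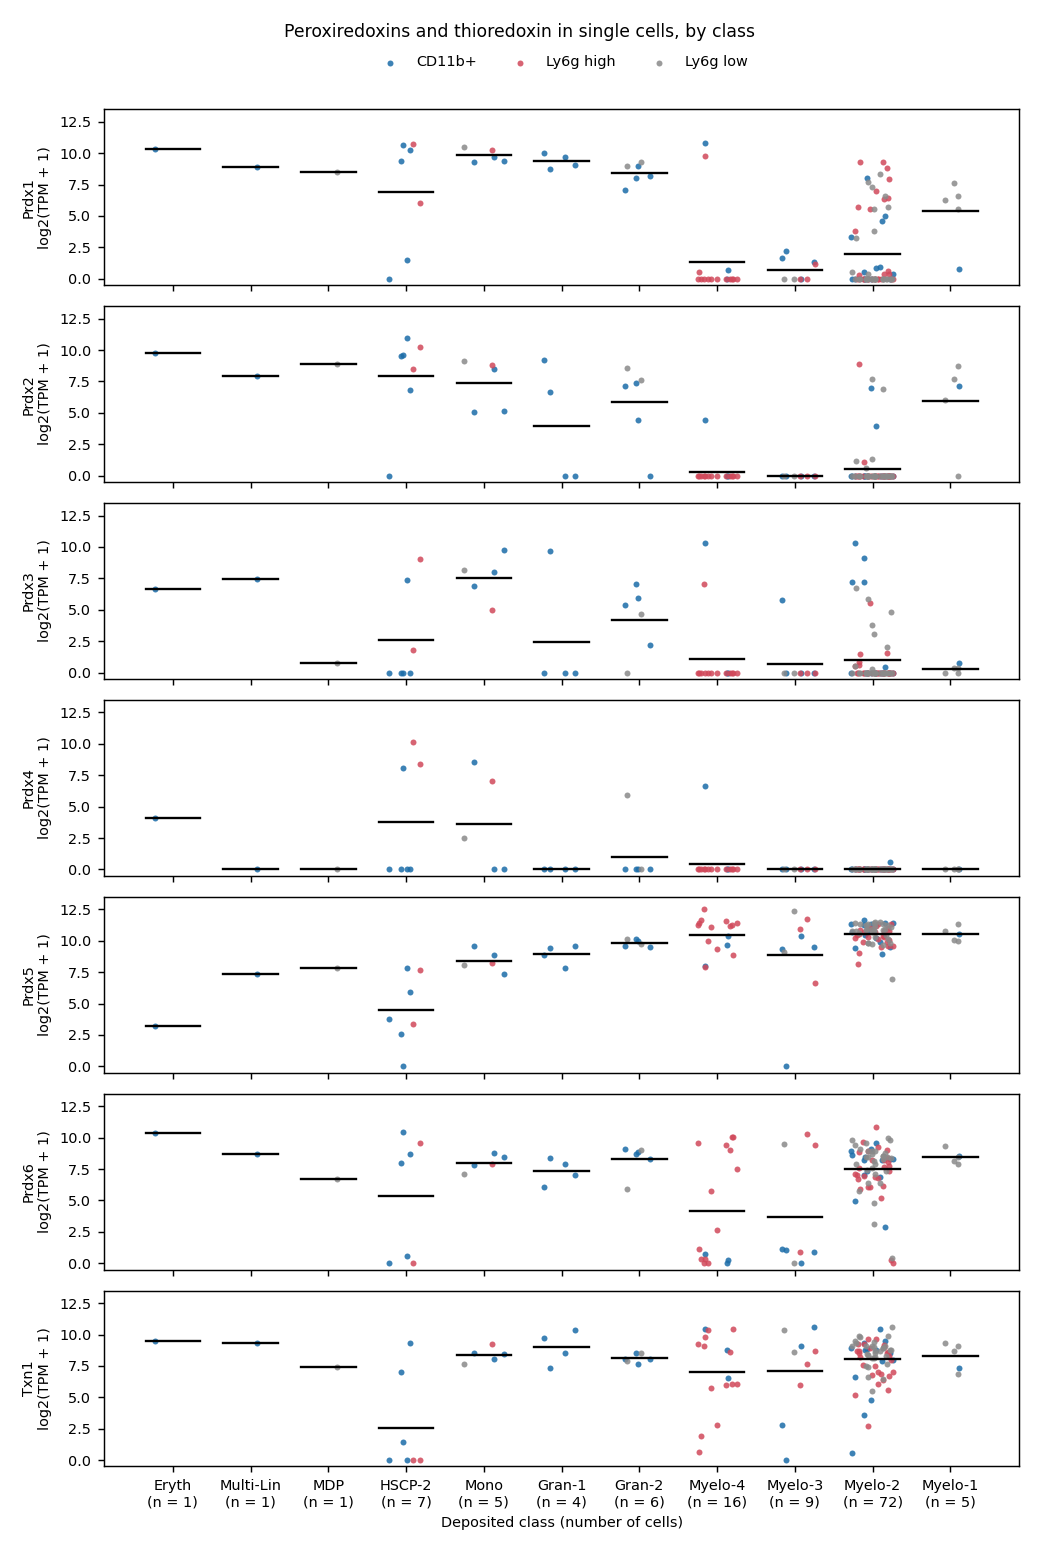
Each point is 1 cell, placed by deposited class and by log2(TPM + 1) of the gene named on the vertical axis, and coloured by gate. Black lines are class means of log2(TPM + 1). Prdx1 and Prdx2 are high at the left and mostly at 0 in Myelo-4, Myelo-3 and Myelo-2, where Prdx5 is missing from 1 cell.

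Next the gates were compared. A gene counted as measured in a pair when 25% or more of either group's cells had it detected. It was called higher or lower when mean TPM, with 1 TPM added to each, differed 2-fold or more. In CD11b+ over Ly6g low 6 members were measured, and 3 were called higher and 0 lower. In this pair 30.3% of 4774 measured genes were called higher and 7.83% lower. Prdx1 averaged 336 TPM in CD11b+ cells (lowest 0, median 16.3, highest 1745) and 103 TPM in Ly6g low cells (0, 0 and 1425), a log2 ratio of 1.69. Prdx2 averaged 161 TPM in CD11b+, with 64.4 TPM in Ly6g low, a log2 ratio of 1.31. Prdx3 averaged 154 and 12.8 TPM, a log2 ratio of 3.49. Prdx5 went the other way, at 980 TPM in CD11b+ cells (0, 749 and 3146) and 1736 TPM in Ly6g low cells (121, 1757 and 5304), a log2 ratio of -0.82 that did not reach 2-fold. Prdx6 and Txn1 had log2 ratios of -0.23 and -0.16. The ranges of both gates overlapped for every member. Among cells with 1500 to 3000 genes detected, 21 of CD11b+ and 25 of Ly6g low, the log2 ratios were 2.82 for Prdx1, 3.37 for Prdx2 and 5.29 for Prdx3, and without cell 46 they were 2.12, 3.43 and 4.58. Over all cells, Prdx2 rested on few cells: without the CD11b+ cell with the most Prdx2, a HSCP-2 cell with 1982 TPM, its log2 ratio over Ly6g low was 0.82, short of 2-fold. Without the Ly6g low cell with the most Prdx1 or Prdx3, the log2 ratios of these genes were 2.24 and 4.49.

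In CD11b+ over Ly6g high 6 members were measured, 3 were called higher and 0 lower, where 44.5% of 4447 measured genes were called higher and 6.93% lower. The log2 ratios were 1.32 for Prdx1, 1.55 for Prdx2, 3.16 for Prdx3, -0.74 for Prdx5, -0.13 for Prdx6 and 0.36 for Txn1. Both comparisons share the CD11b+ cells. Their share of members called higher, 3 of 6, lies close to the background in the second pair and above it in the first. Without cell 46 the log2 ratios of Prdx1 and Prdx3 over Ly6g low were 1.53 and 3.19, and the count of members called stayed at 3. Over Ly6g high in cells with 1500 to 3000 genes detected, Prdx1 had a log2 ratio of -0.14 without cell 46, opposite to that over all cells. Without the highest Ly6g high cell the log2 ratios of Prdx2 and Prdx3 over that gate were 2.47 and 4.76. On the scale rescaled without granule genes the median ratio of all measured genes shifted by -0.38 over Ly6g low and -0.52 over Ly6g high. There Prdx5 had log2 ratios of -1.01 and -1.07, past 2-fold. Shares of all measured genes called on that scale are not given, so this is not read against a background.

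The gates differ in class make-up, so they were also read within classes. Within Myelo-1 to Myelo-4 cells alone, a restriction chosen after seeing the data, Prdx2 had a log2 ratio of -0.99 for CD11b+ over Ly6g low, opposite to that over all cells, and was under the measuring limit. The log2 ratio was 1.40 for Prdx1, 4.55 for Prdx3 and -0.37 for Prdx5 there. Without cell 46 that of Prdx1 turned to -1.10, a lower call, and that of Prdx3 was 3.95. Over Ly6g high within Myelo cells Prdx1 had a log2 ratio of 0.33 with cell 46 and -2.17 without it. The Prdx1 direction among Myelo cells thus rested on 1 cell. Within Myelo-2 cells 14 CD11b+ and 31 Ly6g low cells could be set side by side. Of 5 members measured, 1 was called higher and 0 lower, where 17% of 4063 measured genes were called higher and 23.4% lower. The called gene was Prdx3, at 150 and 6.80 TPM, a log2 ratio of 4.27. It rested on 4 of 14 CD11b+ cells with 546, 146, 151 and 1255 TPM. Without the last the log2 ratio was 3.08, and among cells with 1500 to 3000 genes detected it was under the measuring limit. Prdx1 averaged 23.3 TPM in CD11b+ Myelo-2 cells and 28.9 TPM in Ly6g low Myelo-2 cells, a log2 ratio of -0.30, so its gate difference was not seen in this class. Prdx5 averaged 1782 TPM in CD11b+ Myelo-2 cells and 1819 TPM in Ly6g low Myelo-2 cells, a log2 ratio of -0.03.

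No member was called higher or lower in Ly6g high over Ly6g low, with 5 measured, where 7.96% of 3983 measured genes were called higher and 23.7% lower. Prdx5 averaged 1633 TPM in Ly6g high cells (lowest 9.57, median 1562, highest 6036) and 1736 TPM in Ly6g low cells. Prdx6 averaged 326 and 348 TPM, and Txn1 325 and 465 TPM, log2 ratios of -0.09 and -0.52. The medians of these genes were further apart than the means, for Prdx6 at 170 TPM in Ly6g high, with 341 TPM in Ly6g low, and for Txn1 at 224 TPM and 420 TPM. The mean of log2(TPM + 1) accordingly differed by -1.24 for Prdx6 and -1.46 for Txn1. Prdx4 averaged 34.7 TPM in Ly6g high, with 1.60 TPM in Ly6g low but was under the measuring limit, and nearly all of its Ly6g high level came from HSCP-2 cells 56 and 85, which had 2.91 and 2.95 TPM of Ly6g and no Itgam. Within Myelo-2 cells Prdx1 was the 1 member of 4 called higher and none was lower, where 13.1% of 3911 measured genes were called higher and 19.8% lower. It averaged 87.3 TPM in 27 Ly6g high cells and 28.9 TPM in 31 Ly6g low cells, a log2 ratio of 1.56, and was detected in 10 and 8 of them.

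**Figure D3:**
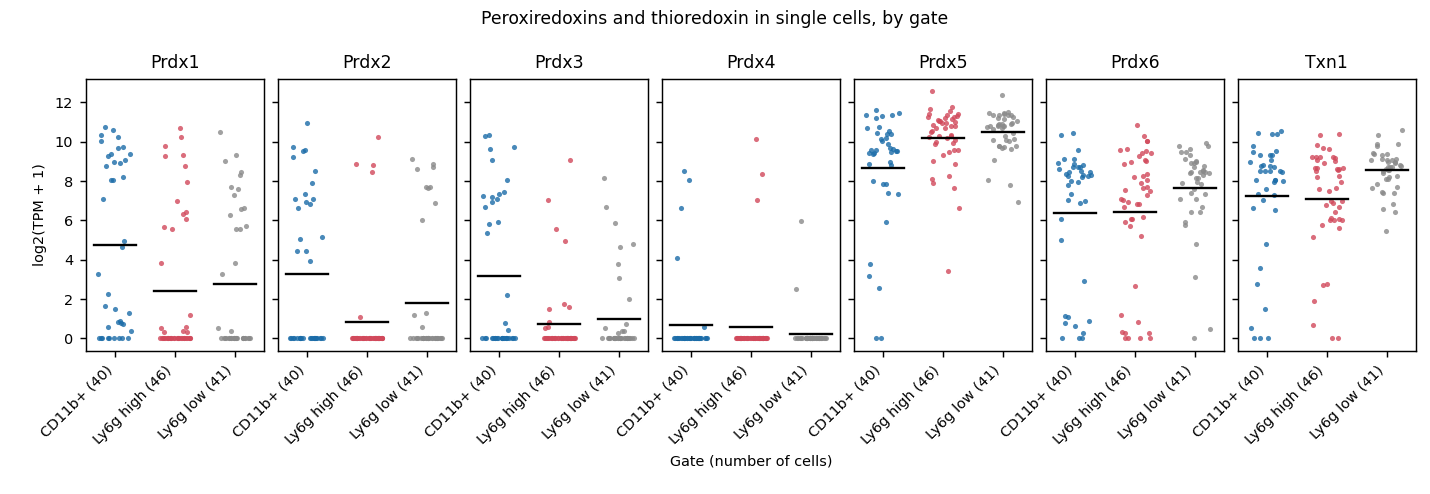
Each point is 1 cell, placed by gate and by log2(TPM + 1) of the gene above each panel, and black lines are gate means of log2(TPM + 1). CD11b+ cells spread over the whole range of Prdx1, Prdx2 and Prdx3 and reach lower levels of Prdx5 than the cells of both Ly6g gates.

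Classes were compared within a gate in 2 pairs. In the CD11b+ gate 8 Gran-1 and Gran-2 cells were set against 14 Myelo-2 cells. Of 6 members measured, 2 were called higher and 1 lower, where 55.4% of 6679 measured genes were called higher and 11.8% lower. Prdx1 averaged 504 TPM in the Gran cells (lowest 136, median 467) and 23.3 TPM in Myelo-2 cells (median 0.38, highest 261), a log2 ratio of 4.38. Only 1 Myelo-2 cell lay above the lowest Gran cell. Prdx2 averaged 126 TPM in Gran cells and 9.81 TPM in Myelo-2 cells, a log2 ratio of 3.55. Without the highest Gran cell it was 2.49, and without the highest Myelo-2 cell 5.92, while Prdx1 without the highest Myelo-2 cell had 6.39. Prdx5 was the called lower gene, at 726 TPM in Gran cells and 1782 TPM in Myelo-2 cells, a log2 ratio of -1.29. Prdx6 stood at 314 and 300 TPM and Txn1 at 477 and 398 TPM, with log2 ratios of 0.07 and 0.26. The Gran cells had more genes detected, a median of 4169 over all 10 Gran cells against 2239.5 in all Myelo-2 cells, and all measured genes had a median log2 ratio of 1.26. Prdx3, Prdx5, Prdx6 and Txn1 lay below that median and Prdx1 and Prdx2 above it. Prdx3 averaged 129 TPM in Gran and 150 TPM in Myelo-2 cells, a log2 ratio of -0.21, and was detected in 5 and 4 of them. Its ratio turned on single cells, at 0.99 without the highest Myelo-2 cell and -2.10 without the highest Gran cell.

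In the Ly6g high gate 13 Myelo-4 cells were set against 27 Myelo-2 cells, and 0 of 4 members measured were called higher or lower, where 13.7% of 3105 measured genes were called higher and 45.3% lower. Prdx5 averaged 2266 TPM in Myelo-4 cells and 1465 TPM in Myelo-2 cells, a log2 ratio of 0.63, where the median of all measured genes was -0.75. Prdx6 averaged 334 and 286 TPM and Txn1 410 and 310 TPM, with log2 ratios of 0.22 and 0.40. Their medians lay the other way, at 51.4 and 158 TPM for Prdx6 and 65.3 and 290 TPM for Txn1 in Myelo-4 and Myelo-2 cells. Prdx1 averaged 67.7 and 87.3 TPM, but was detected in 1 of 13 Myelo-4 cells and 10 of 27 Myelo-2 cells.

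**Figure D4:**
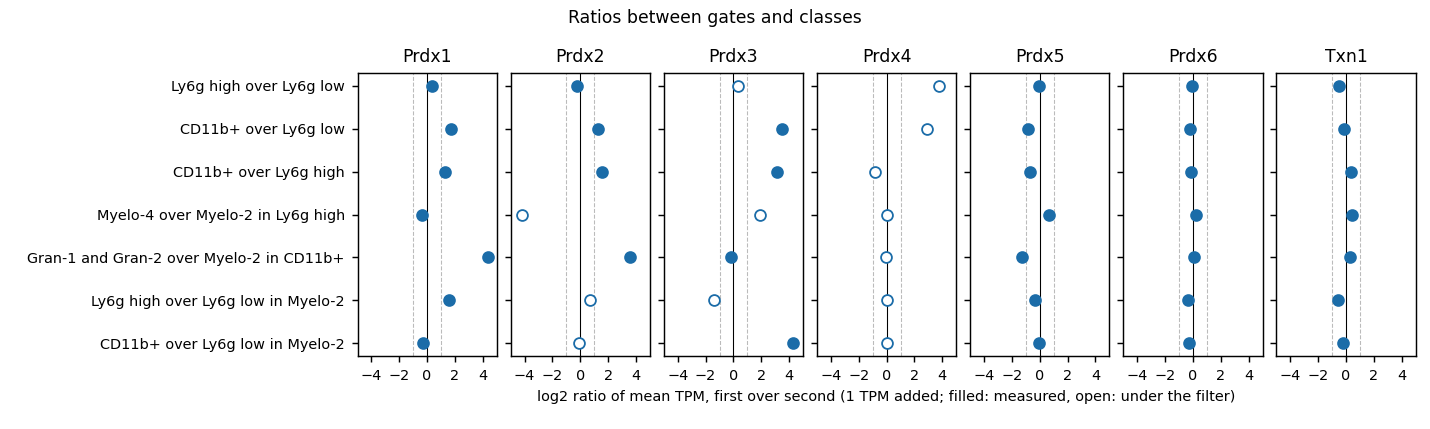
Log2 ratio of mean TPM (1 TPM added) of each gene, first group over second, in 7 pairs of gates or classes. Dashed lines mark 2-fold, filled circles genes that were measured and open circles genes under the measuring limit. Prdx6 and Txn1 stay within 2-fold in the 7 pairs and Prdx5 in all but Gran over Myelo-2 (-1.29), while measured values of Prdx1, Prdx2 and Prdx3 reach 4.38, 3.55 and 4.27.

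The peroxiredoxins were then read beside the NADPH oxidase genes. The summed level of these 5 oxidase genes had a median of 3014 TPM in CD11b+, 4343 TPM in Ly6g high, with 4406 TPM in Ly6g low. By class the median was 328.1 TPM in HSCP-2, 1400 TPM in Mono, 2746 TPM in Gran-1 and Gran-2 together, 5160 TPM in Myelo-4, 1365 TPM in Myelo-3, 4645 TPM in Myelo-2 and 4280 TPM in Myelo-1 cells. Cybb, the catalytic subunit, averaged 0.823 TPM in HSCP-2, 85.3 TPM in Mono, 168 TPM in Gran-1, 99.7 TPM in Gran-2, 1049 TPM in Myelo-2 and 1003 TPM in Myelo-4 cells. The 4 Gran-1 cells had 0.54, 20.4, 652 and 0.53 TPM of Cybb, so 1 cell carried that mean. Apart from Myelo-3, the Myelo classes had more oxidase transcript and more Prdx5 than HSCP-2, Mono and Gran cells. Across all cells, which share the scaling of TPM, Prdx5 had an r of 0.78 with the oxidase sum, Txn1 of 0.40, Prdx6 of 0.23, Prdx1 of -0.34 and Prdx2 of -0.39. Within gates r of Prdx5 with the oxidase sum was 0.84 in CD11b+, 0.57 in Ly6g high and 0.34 in Ly6g low. Within the 72 Myelo-2 cells it was 0.14, and r of Prdx1 with the sum was -0.18. The relation was thus weak among cells of the largest class. Their oxidase sums spanned 1441 to 8310 TPM, against 4.95 to 8541 TPM over all cells. Whether the relation runs mainly between classes was not tested. In the pair of Gran over Myelo-2 cells 2 of the 5 oxidase genes, Cybb with a log2 ratio of -3.0 and Ncf1 with -1.41, were called lower and 0 higher, against 11.8% of all measured genes lower. In the 3 pairs of gates 0 of 5 were called in either direction.

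**Figure D5:**
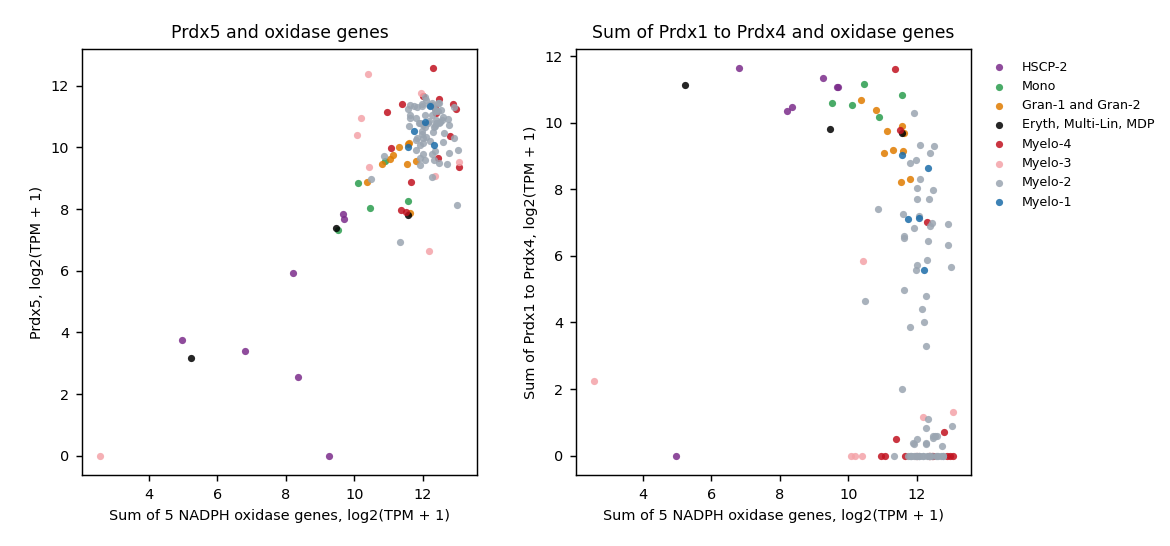
Each point is 1 cell, placed by the summed level of Cybb, Cyba, Ncf1, Ncf4 and Rac2 and by Prdx5 (left) or the sum of Prdx1 to Prdx4 (right), all as log2(TPM + 1) and coloured by class. Most HSCP-2 cells lie low in Prdx5 and high in the Prdx1 to Prdx4 sum, and 1 HSCP-2 cell has neither high. All Mono cells lie high in that sum, with 160 to 759 TPM of Prdx5. Of the Myelo cells 55 of 102 have no detected Prdx1 to Prdx4.

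Other antioxidant genes did not move as 1 block with the 7. Of 12 genes of the thioredoxin system other than the members, 5 were measured in CD11b+ over Ly6g low, and 3 were called higher and 0 lower. These were Txnl1, a thioredoxin-like protein, Txnrd1, the cytosolic thioredoxin reductase, and Txnip, which binds and inhibits thioredoxin, at log2 ratios of 1.33, 1.07 and 1.03, where 30.3% of all measured genes were higher. Each call was lost without its highest CD11b+ cell, with log2 ratios of 0.998, 0.40 and 0.38. Txnrd1 itself was low, at 19.2 TPM in CD11b+, 18.7 TPM in Ly6g high, with 8.62 TPM in Ly6g low. In Gran over Myelo-2 cells of the CD11b+ gate 4 of 6 measured genes of this list were called higher and 1 lower, near the 55.4% and 11.8% of all measured genes. Txn2, the mitochondrial thioredoxin that serves Prdx3, averaged 123 TPM in Gran cells and 12.2 TPM in Myelo-2 cells, a log2 ratio of 3.23, or 4.91 without the highest Myelo-2 cell. Txnrd1 was the 1 called lower, at 0.565 and 14.3 TPM, and 1 cell gave 88.4% of its Myelo-2 sum, without which the log2 ratio was -0.83.

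The superoxide dismutases turn superoxide into hydrogen peroxide. Sod1, the cytosolic enzyme, averaged 2166 TPM in CD11b+, 723 TPM in Ly6g high, with 571 TPM in Ly6g low. It was higher in CD11b+ over Ly6g low with a log2 ratio of 1.92 and over Ly6g high with 1.58. Myelo-4 cells of the Ly6g high gate had 10.8 TPM of Sod1, against 513 TPM in Myelo-2 cells, a log2 ratio of -5.45, and 1 cell gave 97.2% of the Myelo-4 sum. In Gran over Myelo-2 cells all 3 measured genes of the list, Sod1, Sod2 and Cat, were called higher, with log2 ratios of 1.40, 2.82 and 2.30, where 55.4% of all measured genes were. Cat lost its call without the highest Gran cell, at 0.85, and 1 cell gave 99.9% of its Myelo-2 sum.

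Of 16 glutathione genes, 9 were measured in Ly6g high over Ly6g low, where 3 were called lower and 0 higher, against 23.7% and 7.96% of all measured genes. Gpx4, which reduces lipid peroxides, averaged 144 TPM in the Ly6g high gate and 349 TPM in the Ly6g low gate, a log2 ratio of -1.27. Mgst1, the microsomal glutathione transferase, averaged 1435 TPM in Myelo-4 and 569 TPM in Myelo-2 cells of the Ly6g high gate, and 241 TPM in Gran and 805 TPM in Myelo-2 cells of the CD11b+ gate, log2 ratios of 1.33 and -1.74. Glrx, a cytosolic glutaredoxin, was also lower in Gran over Myelo-2 cells, at 311 and 807 TPM. In that pair 9 of 13 measured glutathione genes were called higher and 2 lower, against 55.4% and 11.8% of all measured genes.

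Of 10 NADPH supply genes 9 were measured in CD11b+ over Ly6g low, with 2 called higher and 1 lower, against 30.3% and 7.83% of all measured genes. G6pdx, the entry enzyme of the pentose phosphate path, averaged 138 TPM in CD11b+, with 284 TPM in Ly6g low, a log2 ratio of -1.04, while Idh1 and Idh2, isocitrate dehydrogenases that make NADPH, had log2 ratios of 1.62 and 2.35. Without the highest CD11b+ cell, which gave 52.1% of the sum, Idh1 had a log2 ratio of 0.60, and without the highest Ly6g low cell G6pdx had -0.86 and Idh2 3.0, so the Idh1 and G6pdx calls rested on 1 cell. Of 8 genes of NRF2 and its known targets 5 were measured there, with 2 called higher and 1 lower. Nfe2l2, which encodes NRF2, averaged 227 TPM in CD11b+, with 69.4 TPM in Ly6g low, and Fth1, ferritin heavy chain, 2251 and 729 TPM, and without the highest CD11b+ cell their log2 ratios of 1.69 and 1.63 were 1.10 and 1.24.

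Organelle lists were read beside Prdx3 and Prdx4. Of 10 mitochondrial matrix genes all 10 were measured in CD11b+ over Ly6g low, and 6 were called higher and 0 lower, with a median log2 ratio of 1.3 where all measured genes had 0.48. The matrix chaperones Hspa9, Hspd1 and Hspe1 led, with log2 ratios of 3.16, 3.10 and 2.58, next to 3.49 for Prdx3, and of 2.80, 2.73 and 2.18 without the highest CD11b+ cell. Prdx3 did not go with this list in other pairs. In Gran over Myelo-2 cells 8 of 10 matrix genes were called higher and 0 lower, against 55.4% and 11.8%, while Prdx3 had -0.21. In CD11b+ over Ly6g low within Myelo-2, 0 of 5 measured were called higher and 2 lower, against 17% and 23.4%. Prdx3 had 4.27 there. Of 13 endoplasmic reticulum folding genes all were measured in CD11b+ over Ly6g low and 4 were called higher and 0 lower, near the 30.3% of all measured genes. In Gran over Myelo-2 cells 11 of 13 were called higher and 0 lower, against 55.4% and 11.8%, with Calr, a luminal chaperone, at 711 and 21.6 TPM, while Prdx4 was detected in none of those 8 Gran or 14 Myelo-2 cells. Prdx4 was thus not measured in that pair, and its 1 Gran cell lay in Ly6g low.

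By Pearson r of log2(TPM + 1) over all cells, among 3220 genes, genes most like each member were named. They were Nme2 (0.67), Impdh2 (0.64) and Ly6e (0.63) for Prdx1, Hspe1 (0.69), Snhg1 (0.67) and Nme2 (0.67) for Prdx2, and Hspd1 (0.50) and Snhg1 (0.49) for Prdx3. Prdx4 was most like Zfp36l2 (0.49), Prdx2 (0.48) and Nme2 (0.47). Prdx5 was most like Anxa1 (0.77), the oxidase gene Cybb (0.72) and Cd52 (0.72). Prdx6 was most like Hmgn2 (0.52), Uqcrc1 (0.52) and Ppia (0.50), and Txn1 like Hmgn2 (0.44), H3f3a (0.43) and Sec11c (0.41). When 12 groups of class and gate served as points in place of cells, 1 of the 3 genes was shared for Prdx5 (Anxa1) and for Txn1 (H3f3a), and 0 for the other 5.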

How the data were processed

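Single marrow cells were captured on the Fluidigm C1, copied with the SMARTer kit, and made into Nextera XT libraries read as 150 bp pairs, 96 cells to a library, per the labels' protocols. The authors deposited 1 table of log2(TPM + 1) values; the unit was read from the values, which sum to between 999633 and 1005380 TPM in each cell once turned back. Bowtie2, RSEM and mm9 are named in the submitters' processing notes, while versions, annotation and the method behind the class names are not given in these sources. TPM keeps no read depth.

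Here the log2 values were turned back to TPM, and groups were set against each other as the log2 ratio of mean TPM after adding 1 TPM, with a call at 2-fold among genes detected (1 TPM) in 25% or more of either group's cells. Such a ratio understates changes of genes near 1 TPM. Fits across genes, p-values and SEs were not computed, since no animal is named. Intervals of shares are exact (Clopper-Pearson, 95%), the limit of a count of 0 is 3 cells of the total, and both cover counting error only. All cells were kept, no doublet caller was run, no 2 columns were identical, and 18 or 19 capture position codes recurred between each pair of gates. Only the ratio formula was tried, on resampled Ly6g low cells with some genes multiplied by known factors. Recovery of those factors was fixed by that design, and it covers no filter, call, correlation or rescaling. Python 3.11.15 with pandas 2.3.3 and numpy 2.4.6 was used.

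The 7 genes and the gene lists were chosen with earlier results of these data known. All members and 5 oxidase genes are named; some genes are not reported here. Of other lists at most 3 genes each way were eligible, by size of ratio, if 1 group averaged 10 TPM or above, and for each member the 3 genes with the highest r. Pooling the Myelo classes against all others was chosen after the values were seen.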

Additional observations from a re-analysis of the deposited data

How the results depend on the processing

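Counts of members called higher or lower changed as follows. Shares of all measured genes are not given for these settings, so the counts are not results about the members. The median log2 ratio of all measured genes moved too. In Ly6g high over Ly6g low it went from -0.29 to -0.80 with the mean of log2(TPM + 1), and to 0.08 among cells with 1500 to 3000 genes. In Myelo-4 over Myelo-2 it went from -0.75 to -1.62 without the highest cells. With the mean of log2(TPM + 1), lower calls were 2 in Ly6g high over Ly6g low, 3 in CD11b+ over Ly6g low, 1 in CD11b+ over Ly6g high, 3 in Myelo-4 over Myelo-2 and 1 in CD11b+ over Ly6g low within Myelo-2, and higher calls were 4 in Gran over Myelo-2. Without the filter, Ly6g high over Ly6g low had 1 higher, CD11b+ over Ly6g low had 4 higher, Myelo-4 over Myelo-2 had 1 higher and 1 lower, and Ly6g high over Ly6g low within Myelo-2 had 1 lower. Rescaled without granule genes, lower calls were 1 in CD11b+ over Ly6g low, 1 in CD11b+ over Ly6g high and 2 in Gran over Myelo-2. Without the highest cell of each group there was 1 lower in Myelo-4 over Myelo-2 and in CD11b+ over Ly6g low within Myelo-2. Among cells with 1500 to 3000 genes, higher calls were 1 in Ly6g high over Ly6g low, 1 in Myelo-4 over Myelo-2 (3 against 23 cells) and 0 in CD11b+ over Ly6g low within Myelo-2, and lower calls were 1 in Myelo-4 over Myelo-2 and 2 in Gran over Myelo-2. There Prdx2 turned to -3.53 in Gran over Myelo-2, with 1 Gran cell left. With Myelo cells only, a choice made after seeing the data, there was 1 higher in Ly6g high over Ly6g low and 1 in CD11b+ over Ly6g high, and Prdx2 turned to -0.99 in CD11b+ over Ly6g low. The cause of these changes was not tested. Of 49 log2 ratios of members, 48 moved by under 1.5 times with a pseudocount of 0.1 TPM, 41 with 10 TPM, 39 rescaled, 35 without the highest cells, 30 at matched gene numbers and 21 with the mean of log2. Leaving out CD11b+ cell 46, also chosen after seeing the data, left all 14 within that limit. Without it among Myelo cells, there were 0 higher and 1 lower in CD11b+ over both Ly6g gates, with Prdx1 at -1.10 (over Ly6g low) and -2.17 (over Ly6g high) and Prdx2 at -1.03 (over Ly6g low). Without it among cells with 1500 to 3000 genes, Prdx1 over Ly6g high was -0.14. For the members, detection at 5 TPM kept 118 of 119 shares within their intervals, all but Prdx1 in Myelo-3, at 0%. No paired analysis was possible because the cell numbers only name cells. With 1 sample a gate and no read depth, no difference between gates can be told from one between plates, runs or animals. Differences between classes within a gate lack a replicate check, and their cells are not assigned to animals.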
